A study of Mus musculus with 2 samples.

Results

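A set of 10 genes of the Hedgehog pathway was followed in cells of the ocular area of mouse embryos at the 26-somite stage: the ligand gene *Shh*, the receptor gene *Ptch1*, the transducer gene *Smo*, the transcription factor genes *Gli1*, *Gli2* and *Gli3*, the inhibitor gene *Hhip* and the co-receptor genes *Gas1*, *Cdon* and *Boc*. They were chosen by name, as 10 of the 27998 genes listed for both libraries, with earlier results of these data known. A 10x Chromium library of a wild-type (WT) embryo was compared with that of a *Mab21l1*-null (KO) embryo, each from the pair of optic areas of 1 C57BL/6J embryo at E9.25. The null allele is not described as limited to a tissue. *Mab21l1* encodes a nuclear protein needed for the lens placode, the thickened ectoderm from which the lens forms. As each genotype had 1 library, no test of genotype was possible. The intervals given are exact 95% intervals that cover the counting of unique molecular identifiers (UMIs) only, not differences between embryos.

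Hedgehog ligands bind PTCH1, which otherwise holds the transducer SMO inactive. Released SMO acts through the GLI proteins at the primary cilium: GLI1 is an activator made in response to the signal, GLI2 is the main activator and GLI3 acts largely as a repressor. GAS1, CDON and BOC help PTCH1 to bind the ligand, and HHIP captures it. *Ptch1*, *Gli1* and *Hhip* are themselves raised by the signal, so that their RNA is commonly read as a sign of response, while *Gas1*, *Cdon* and *Boc* are commonly lowered by it. In the early eye, SHH from the ventral midline divides the eye field and promotes the ventral optic vesicle and the optic stalk.

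After the limits on detected genes and mitochondrial UMIs, 1680 cells with 41880035 UMIs were kept in the library labelled WT (median 21037 per cell) and 2404 cells with 52430844 UMIs in the library labelled KO (median 18135). *Mab21l1* RNA went against the labels over all kept cells (20.3 UMIs per 1000000 UMIs, CPM, in the library labelled WT and 32.5 CPM in the library labelled KO), while in ectoderm-like cells it was lower in the latter (87.6 and 37.3 CPM). The summed level of lens placode markers in ectoderm-like cells was 1320 CPM under the WT label and 766 CPM under the KO label. Therefore WT and KO stand below for the label of a library, and every direction rests on these labels. Cells were divided into classes by clusters of genes other than the pathway genes, and classes were named by marker genes. They were neural retina-like (315 cells in WT, 480 in KO), pigment epithelium-like (173, 200), anterior forebrain-like (184, 230), mesenchyme-like (493, 771), ectoderm-like (59, 47), endothelium-like (66, 103), neural crest-like (30, 31) and erythrocyte-like cells (38, 52). Another 2 optic vesicle clusters were called by their leading genes: a *Tbx5*-led one (81, 119), with the dorsal genes *Tbx5*, *Bmp4* and *Aldh1a1*, and an *Fgf8*-led one (106, 215). The neural retina-like cells were led by the ventral genes *Vax2os* and *Vax2*. In the *Tbx5*-led cells 5 of 7 neural retina markers were at least 2-fold above the other cells, but none was among the 10 leading genes. Markers of the ventral forebrain, where the midline source of SHH lies, summed to 7.53 CPM or less in each of these classes in WT and to 8.78 CPM or less in KO. The libraries shared 15 barcode sequences, and 6 member and class pairs were past the fold used below with or without those cells.

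The 250 bases of reference sequence before the RefSeq start of *Ptch1*, *Hhip* and *Gas1* are shown in the direction of transcription. *Ptch1* and *Hhip* are genes raised by the pathway, and *Gas1* is the member that was lower in KO in each of the 9 classes compared below. Capitals mark CCACCC or its reverse complement GGGTGG, the core of the site that GLI proteins bind. The sequences are from RefSeq on GRCm38.p6, minus strand, at chr13:63565736-63565985 for *Ptch1*, chr8:80058009-80058258 for *Hhip* and chr13:60177536-60177785 for *Gas1*. The *Ptch1* window lies inside the gene as annotated by GENCODE (chr13:63508328-63573598), which starts further upstream, so it is not the sequence before that start. The *Gas1* window does not adjoin the GENCODE start of *Gas1* either, which lies further downstream, at chr13:60177365.
Ptch1: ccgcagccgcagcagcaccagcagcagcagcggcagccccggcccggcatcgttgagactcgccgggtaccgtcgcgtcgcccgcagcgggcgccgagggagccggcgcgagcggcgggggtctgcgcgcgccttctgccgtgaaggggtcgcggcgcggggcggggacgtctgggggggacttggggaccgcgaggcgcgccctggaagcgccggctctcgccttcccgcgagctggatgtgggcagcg
Hhip: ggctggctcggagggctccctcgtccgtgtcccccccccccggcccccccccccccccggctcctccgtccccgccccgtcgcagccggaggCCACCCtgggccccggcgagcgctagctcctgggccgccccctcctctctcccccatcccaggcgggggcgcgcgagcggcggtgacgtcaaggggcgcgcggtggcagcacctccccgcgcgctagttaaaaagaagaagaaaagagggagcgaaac
Gas1: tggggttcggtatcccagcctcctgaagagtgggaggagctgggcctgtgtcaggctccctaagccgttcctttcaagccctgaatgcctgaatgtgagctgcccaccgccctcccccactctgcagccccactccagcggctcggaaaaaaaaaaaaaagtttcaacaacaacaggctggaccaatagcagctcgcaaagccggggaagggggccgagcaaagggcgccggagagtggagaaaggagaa
Windows were at hand for 7 of the 10 members. The core was found on either strand in 4 of these (*Gli2*, *Gli3*, *Hhip* and *Smo*) and in 28.1% of all 32851 windows of the same length. The longer GLI site GACCACCCA, which contains the core, was in none of the 7 and in 0.225% of all windows. These matches describe the letters in these windows and nothing about binding.

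*Shh* RNA was all but absent from the dissected tissue. In all, 5 UMIs were counted in the library labelled WT, all in 1 *Fgf8*-led cell of 12467 UMIs, and none in the library labelled KO, where a count of 0 leaves an exact upper limit of 0.0704 CPM. The level over all kept cells of WT was 0.119 CPM. The limit for KO treats UMIs as independent, although all 5 in WT came from 1 cell. Counted by cells, 1 of 1680 in WT and 0 of 2404 in KO leave upper limits of 0.331% and 0.153%. The cell with *Shh* also held 6 UMIs of *Nkx2-1* and 4 of *Nkx2-2*, genes of the ventral forebrain that respond to Hedgehog, 11 UMIs of *Six6* and 6 of *Six3*, genes of the eye field and hypothalamus, and 2 UMIs of *Ptch1*. It held no UMI of *Fgf8*, *Pax2* or *Vax2*. It accounted for 6 of the 10 *Nkx2-1* UMIs in WT, and 1 *Nkx2-1* UMI was counted in KO. The other ligand genes were also rare: *Ihh* gave 7 UMIs in 7 cells of WT and none in KO. *Dhh* gave 10 UMIs in 9 cells of WT and 13 in 13 cells of KO. Of these, 7 and 5 UMIs were in erythrocyte-like cells and 1 and 5 in endothelium-like cells. With *Shh* in 1 cell, no list of genes with a like pattern was made for it, and no difference between the libraries can be read. *Shh* lies at chr5:28456815-28467256 (minus strand, GRCm38), where exons of *9530036O11Rik* and *Gm26894* overlap it on the other strand.

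*Ptch1*, the receptor and a target of the pathway, was counted in every class and was highest in mesenchyme-like cells. Its level was 72.2 CPM there in WT (interval 66.9 to 77.8) and 61.6 CPM in KO (57.4 to 66.2). Anterior forebrain-like cells followed in WT with 38.1 CPM, then neural crest-like cells with 34.1, *Fgf8*-led cells with 29.4, neural retina-like cells with 29.0, ectoderm-like cells with 27.8 and pigment epithelium-like cells with 22.0. Among these 6 classes, neighbours in the order had overlapping intervals. In KO the same classes held 27.3, 38.0, 23.6, 27.6, 29.6 and 21.9 CPM, in that order of classes. The lowest levels outside the erythrocyte-like cells were in endothelium-like cells (14.3 and 11 CPM) and in the dorsal *Tbx5*-led cells (13.7 and 17.2 CPM).

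Erythrocyte-like cells, which were assumed to lack *Ptch1*, still held 7.30 CPM in WT and 11 CPM in KO. A UMI of it was found in 23.7% and 34.6% of them at medians of 34642.5 and 33621.5 UMIs. In *Tbx5*-led cells the share with a *Ptch1* UMI was 35.8% and 30.3% at medians of 28163 and 19464 UMIs. When every cell was thinned to 6000 UMIs, the shares were 6.17% and 7.56% in *Tbx5*-led cells against 7.89% and 9.62% in erythrocyte-like cells. In endothelium-like cells they were 9.09% and 2.91%. *Ptch1* in the *Tbx5*-led and endothelium-like cells was thus near the level of erythrocyte-like cells. Over all kept cells *Ptch1* was 35.3 CPM in WT and 32.2 CPM in KO. Erythrocyte-like cells lay further below all kept cells for *Smo* (5.84 and 11.6 CPM against 70.3 and 71.1) and *Gas1* (3.65 and 6.3 CPM against 106 and 65.9). Whether *Ptch1* in erythrocyte-like cells is a background, or free RNA, was not tested. Mesenchyme-like cells stood above erythrocyte-like cells, with a UMI in 58.8% and 49.2%, and in 29.8% and 27.1% when thinned. The intervals of the thinned shares did not overlap (25.8% to 34.1% and 24% to 30.4%, against 1.66% to 21.4% and 3.2% to 21% in erythrocyte-like cells). In neural retina-like cells (52.1% and 48.1%) the thinned shares of 16.5% and 12.3% had intervals that overlapped those of erythrocyte-like cells. Their CPM intervals (25.9 to 32.3 and 25 to 30.4) lay above those of erythrocyte-like cells (3.5 to 13.4 and 6.83 to 16.9). Comparisons with erythrocyte-like cells, by CPM or by thinned shares, are limited by the globins given next. Erythrocyte markers, chiefly globins, made up 307000 and 323000 CPM in erythrocyte-like cells, which lowers the CPM of every other gene there. The 6000 UMIs of a thinned cell include globins, so thinned shares of other genes are lowered there as well.

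*Gli1*, whose RNA depends on the signal more closely than that of the other factors, was also highest in mesenchyme-like cells among the classes with at least 30 of its UMIs over both libraries, with 18.9 CPM in WT (16.2 to 21.9) and 12.8 CPM in KO (10.9 to 15). Neural retina-like cells were next, with 11.6 and 11.9 CPM, and in KO their interval (10.2 to 13.8) overlapped that of the mesenchyme-like cells. Lower levels were found in *Fgf8*-led (8.35 and 6.54 CPM), pigment epithelium-like (7.09 and 9.77), *Tbx5*-led (6.87 and 4.87) and anterior forebrain-like cells (6.36 and 6.38), and the intervals of these 4 overlapped. Neural crest-like cells held 6.02 and 13.3 CPM on 3 and 7 UMIs. Erythrocyte-like cells held 2 UMIs in WT and none in KO, and endothelium-like cells held 4 and 1. Anterior forebrain-like cells thus stood next to the mesenchyme for *Ptch1* and last of these 6 classes for *Gli1* in WT, where it did not differ beyond counting error from the other 3. Within the mesenchyme, *Gli1* was 20.9 and 16.3 CPM in the main cluster, 27.3 and 14.3 CPM in a cluster with *Cga* and *Ebf2* among its leading genes (the *Ebf2* cluster) and 5.64 and 6.59 CPM in a cluster with *Alx1* and *Lhx8* among its leading genes (the *Alx1* cluster), where *Ptch1* was 59.7 and 58.0 CPM. Exons of *Arhgap9* and *Gm47200* overlap *Gli1* on the other strand (chr10:127329882-127341974).

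**Figure D1:**
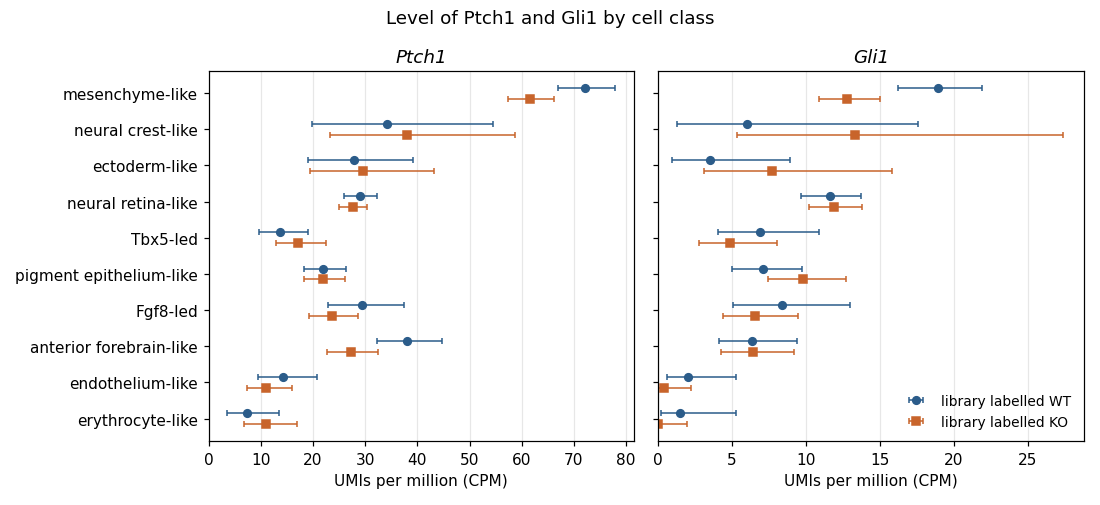
Level of *Ptch1* (left) and *Gli1* (right) in CPM, by cell class; circles are the library labelled WT and squares that labelled KO, with exact 95% Poisson intervals of the counts, 1 library each. For both genes the mesenchyme-like cells stand highest among classes with at least 30 UMIs, at 72.2 and 61.6 CPM of *Ptch1* and, in WT, 18.9 CPM of *Gli1*, with an overlap with the neural retina-like cells for *Gli1* in KO, and erythrocyte-like cells are among the lowest.

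Across the 15 clusters of both libraries (30 values), *Ptch1* and *Gli1* correlated with r = 0.79 on a log2(CPM + 1) scale. The genes outside the pathway lists whose levels were most like those of *Ptch1* were *Ephb3* (r = 0.89), *Fzd7* (0.89), *Zcchc11* (0.88), *Rab11fip2* (0.88) and *Eya2* (0.87). For *Gli1* they were *Sdc2* (0.87), *Col2a1* (0.86), *Fzd2* (0.86), *Bmpr1a* (0.85) and *Pygo1* (0.85). These values describe the clusters, which share libraries and differ in depth. *Ptch1* correlated with *Smo*, *Gli3* and *Gli2* at 0.78, 0.76 and 0.70, and with *Cdon* at 0.30.

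*Hhip*, which binds and sequesters the ligand, was scarce (55 and 90 UMIs, 1.31 and 1.72 CPM over all kept cells). It passed 30 UMIs over both libraries in neural retina-like cells (1.33 and 1.55 CPM) and mesenchyme-like cells (1.59 and 3.47 CPM). The *Ebf2* mesenchyme cluster held 10.5 and 8.26 CPM on 5 and 15 UMIs, against 1.15 and 3.84 CPM in the main cluster. Surface ectoderm-like cells held 9.71 and 11 CPM on 6 and 4 UMIs. No *Hhip* UMI was found in endothelium-like or erythrocyte-like cells.

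*Smo* was the most evenly spread member. Outside the erythrocyte-like cells its level ranged from 47.5 CPM in endothelium-like cells to 88.5 CPM in mesenchyme-like cells in WT, and from 51.3 to 92.2 CPM, the latter in ectoderm-like cells, in KO. Erythrocyte-like cells held 5.84 and 11.6 CPM. Endothelium-like cells, in which *Ptch1* was near its level in erythrocyte-like cells, still held *Smo*.

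The co-receptor genes differed in where they were found. *Gas1*, a membrane-anchored protein gene, was highest in ectoderm-like cells (352 CPM in WT, 159 CPM in KO), pigment epithelium-like cells (197 and 141) and mesenchyme-like cells (184 and 98.4). It was lower in *Tbx5*-led cells (107 and 72.8) and neural retina-like cells (63.5 and 54.4) and low in *Fgf8*-led (24.2 and 19.9) and anterior forebrain-like cells (18.8 and 14.5). In WT the level in ectoderm-like cells (319 to 388) did not overlap that of any other class, whereas those of pigment epithelium-like (185 to 209) and mesenchyme-like cells (175 to 193) overlapped. *Cdon* was highest in *Tbx5*-led cells (59.1 and 65.3 CPM), followed by ectoderm-like cells (35.6 and 47.2) and neural retina-like cells (28.5 and 38.8), and was nearly absent from anterior forebrain-like cells (1.78 and 5.28). *Boc* was scarce, with 94 and 122 UMIs, and passed 30 UMIs in neural retina-like cells (1.87 and 1.96 CPM) and mesenchyme-like cells (4.56 and 3.88 CPM). Anterior forebrain-like cells held 5 and 22 UMIs of *Boc*. In these cells *Gas1* and *Cdon* were at or near their lowest outside the endothelium-like and erythrocyte-like cells, and they held 27.5 and 32.1 CPM of *Lrp2*, an endocytic receptor that binds SHH in the forebrain. As reads were taken from the 3′ end of each RNA, levels of different genes are not compared with each other as amounts.

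**Figure D2:**
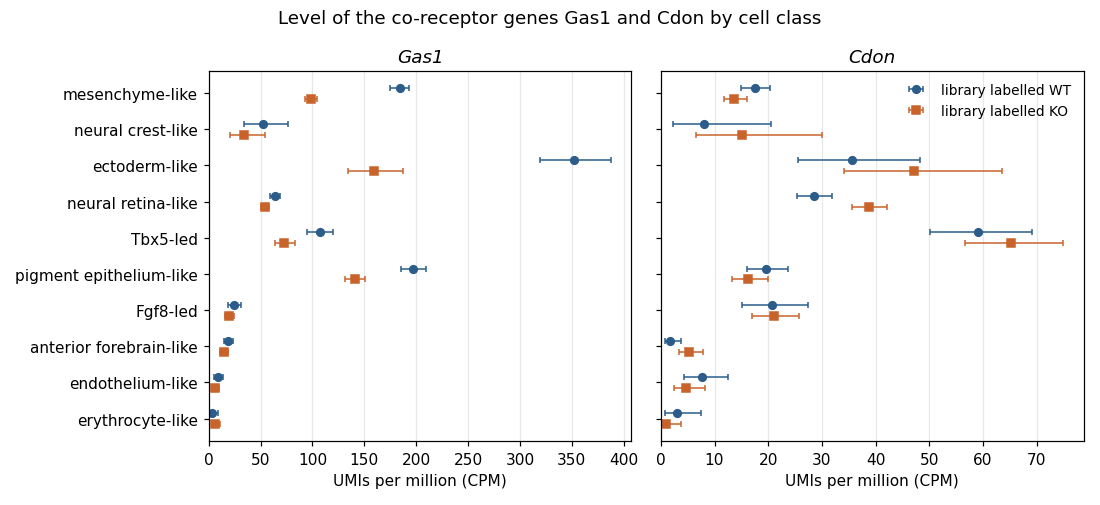
Level of *Gas1* (left) and *Cdon* (right) in CPM, by cell class; circles are the library labelled WT and squares that labelled KO, with exact 95% Poisson intervals of the counts, 1 library each. *Gas1* is highest in ectoderm-like cells, where WT (352 CPM) lies above KO (159 CPM), and *Cdon* is highest in *Tbx5*-led cells (59.1 and 65.3 CPM).

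*Gli2* and *Gli3* were broadly present. *Gli2* was 29.6 and 23.1 CPM in mesenchyme-like cells, 22.7 and 20.7 in neural retina-like, 21.4 and 19.8 in *Tbx5*-led, 17.3 and 24.0 in pigment epithelium-like, 24.4 and 17.8 in anterior forebrain-like and 9.67 and 16.6 in *Fgf8*-led cells. *Gli3* was highest in anterior forebrain-like cells, with 76.3 CPM in WT (67.9 to 85.4) and 71.9 CPM in KO (64.3 to 80.1), and these intervals did not overlap those of the mesenchyme-like cells (49.4 and 41.9 CPM) or of the neural retina-like cells (46.8 and 41.2 CPM). Endothelium-like cells held 10.7 and 15.8 CPM of *Gli3* and 2.04 and 2.37 CPM of *Gli2*. An exon of *Gm6556* overlaps *Gli3* on the other strand.

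Within the optic vesicle, the receptor and target *Ptch1* was lower on the dorsal side and the co-receptor *Cdon* higher, in both libraries. For this, the dorsal *Tbx5*-led cells were divided by the ventral, *Vax2*-led neural retina-like cells. *Ptch1* was 13.7 CPM dorsally and 29.0 ventrally in WT (ratio 0.473, interval 0.326 to 0.669) and 17.2 and 27.6 CPM in KO (0.623, 0.459 to 0.831). *Gli1* was 6.87 and 11.6 CPM in WT (0.594, 0.341 to 0.976) and 4.87 and 11.9 CPM in KO (0.410, 0.224 to 0.694). *Cdon* was 59.1 and 28.5 CPM in WT (2.08, 1.70 to 2.52) and 65.3 and 38.8 CPM in KO (1.68, 1.43 to 1.98). *Gas1* was higher dorsally in both, with ratios of 1.68 and 1.34, of which that in KO did not reach 1.5. Ratios of *Smo* (0.911 and 0.895), *Gli2* (0.941 and 0.958) and *Gli3* (0.733 and 0.827) stayed within 1.5-fold. Of the 7 members with at least 30 UMIs in both libraries, 1 was thus at least 1.5-fold higher dorsally and 2 at least 1.5-fold lower in both, where 7.12% of 10611 genes were past that fold in the same direction in both libraries. The cells were clustered on other genes, so these values describe the clusters, and dorsal *Ptch1* lay near the level of erythrocyte-like cells given above.

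The split was also made without the border between those clusters. For this, neural retina-like, *Tbx5*-led, pigment epithelium-like and *Fgf8*-led cells were pooled. When they were divided instead by UMIs of *Tbx5* without *Vax2* (96 cells in WT, 131 in KO) and of *Vax2* without *Tbx5* (355, 566), the ratios were 0.535 and 0.604 for *Ptch1*, 0.635 and 0.636 for *Gli1*, 2.03 and 1.80 for *Cdon* and 2.2 and 2.1 for *Gas1*. The added pigment epithelium-like cells are high in *Gas1* (197 and 141 CPM) and the *Fgf8*-led cells low (24.2 and 19.9 CPM). The *Gas1* ratios of the 2 splits are therefore not like for like. For *Gli1* in WT the interval (0.370 to 1.03) included 1. This gate was set after the first values were seen. It used many of the same cells as the clusters. *Vax2*, by which it picked ventral cells, is itself a listed target of the pathway. The gate is therefore no independent support for the values of the clusters. Between the clusters, 42 genes of all pathway lists were measured. Of these, 2 were at least 1.5-fold higher dorsally and 9 lower in both libraries, members included, against the 7.12% of all genes. The 9 include *Vax2*, by which the ventral cells were named, so its direction was set in advance and the count is no independent support. Among the lower genes, *Nkx6-1*, a homeobox gene of the ventral neural tube, gave 132 UMIs in neural retina-like and 1 UMI in *Tbx5*-led cells of WT, and 106 and 1 in KO. *Scube2*, a secreted protein gene that aids release of the ligand, gave 42 and 60 UMIs in neural retina-like cells and none in *Tbx5*-led cells of either library. *Pax2*, a gene of the ventral optic cup and stalk, had ratios of 0.564 and 0.6, and *Mycn*, which drives growth of neural progenitors, of 0.659 and 0.543. Next to *Cdon*, the other gene higher dorsally was the glypican gene *Gpc3*, with 1.77 and 2.04.

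**Figure D3:**
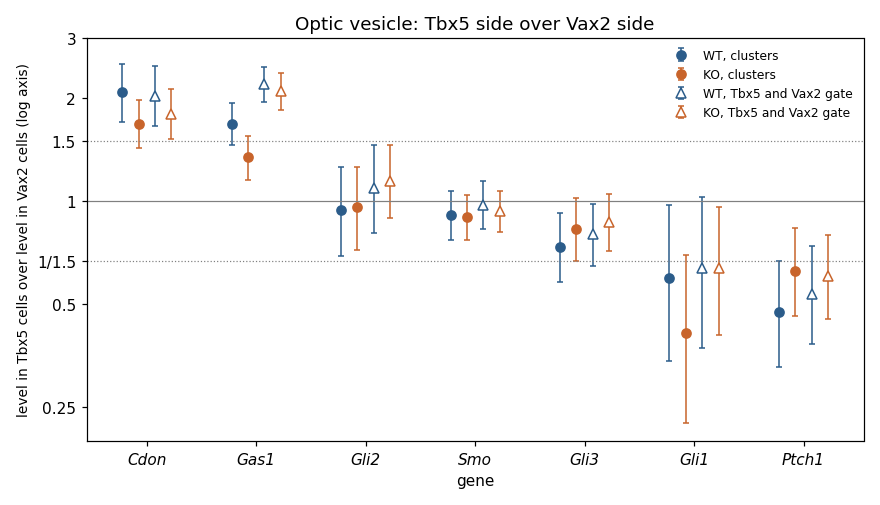
Level in dorsal (*Tbx5*) over ventral (*Vax2*) optic vesicle cells for the 7 members with at least 30 UMIs, on a log axis; filled circles compare clusters, open triangles cells gated by *Tbx5* and *Vax2* UMIs, blue is the library labelled WT and orange that labelled KO, bars are exact 95% intervals for counting, and dotted lines mark 1.5-fold. *Ptch1* and *Gli1* lie below 1 in all 4 comparisons and *Cdon* and *Gas1* above 1. The bar of *Gli1* in gated cells of WT (0.370 to 1.03) crosses 1, and the 2 splits share many cells.

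The comparison of KO with WT asked whether the pathway differed between the libraries so labelled. In 9 classes (those above without the erythrocyte-like cells), 60 pairs of a member and a class had at least 30 UMIs over both libraries. Of these, 3 were at least 1.5-fold higher and 3 at least 1.5-fold lower in KO, 10.0% of the pairs, where 8.29% of all gene and class pairs were past that fold, so the members as a group lay near the background. The 3 higher pairs were *Gli2* in *Fgf8*-led cells, *Cdon* in anterior forebrain-like cells and *Hhip* in mesenchyme-like cells. All 3 lower pairs were *Gas1*.

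*Gli1* was measured in 6 of the 9 classes. It had too few UMIs to compare in ectoderm-like (4 in WT and 7 in KO), endothelium-like (4 and 1) and neural crest-like cells (3 and 7). Of the ectoderm-like UMIs, lens placode-like cells held 0 and 6 and surface ectoderm-like cells 4 and 1. *Ptch1* in all 9 classes and *Gli1* in those 6 passed the fold in none with the settings used here. Under single alternatives *Ptch1* passed it in *Tbx5*-led (1.77), *Fgf8*-led (0.666), neural crest-like (0.626) and anterior forebrain-like cells (0.659 and 0.664), and in mesenchyme-like cells scored as G1 (0.609), and *Gli1* in *Tbx5*-led (0.527), pigment epithelium-like (1.57) and mesenchyme-like cells (0.648). In neural retina-like cells the KO over WT ratio was 0.953 for *Ptch1* (326 and 409 UMIs, interval 0.822 to 1.11) and 1.03 for *Gli1* (130 and 176 UMIs). In these cells 0 of 9 measured members were past 1.5-fold, where 5.38% of genes were. In pigment epithelium-like cells *Ptch1* had a ratio of 0.997 and *Gli1* of 1.38, and 0 of 7 members were past the fold against 6.94% of genes. In *Tbx5*-led cells the ratios were 1.25 and 0.710, with 0 of 7 members against 7.76%. In *Fgf8*-led cells the ratios were 0.801 for *Ptch1* (0.583 to 1.11) and 0.783 for *Gli1* (0.422 to 1.48). Counting intervals of these ratios included 1, and a difference smaller than they allow was not detectable at this depth.

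Outside the optic vesicle *Ptch1* was somewhat lower in KO in anterior forebrain-like cells (150 and 124 UMIs, ratio 0.715, 0.559 to 0.913) and in mesenchyme-like cells (681 and 763 UMIs, 0.854, 0.769 to 0.948). *Gli1* in mesenchyme-like cells (178 and 159 UMIs) had a ratio of 0.681 (0.546 to 0.848), just inside the fold. Also lower there, within the fold, were *Gli2* (0.781, 0.66 to 0.925), *Gli3* (0.847, 0.746 to 0.962) and *Cdon* (0.785, 0.63 to 0.979). The intervals of *Smo* (0.986) and *Boc* (0.851) included 1, and *Hhip* was higher (2.18). The mesenchyme was made up differently in the libraries: the main cluster held 323 of 493 cells in WT and 379 of 771 in KO, and the *Alx1* cluster, low in *Gli1*, held 74 and 261. Within the main cluster the ratio was 0.780 for *Gli1* and 0.879 for *Ptch1*, within the *Alx1* cluster 1.17 and 0.972, and within the *Ebf2* cluster 0.524 and 0.864. Among the mesenchyme-like cells scored as G1, *Ptch1* was 86.2 and 52.5 CPM (0.609), in those scored as S 67.1 and 53.0 CPM (0.790) and in those scored as G2M 71.5 and 75.1 CPM (1.05). In ectoderm-like, endothelium-like and neural crest-like cells *Ptch1* rested on 17 to 32 UMIs per library, with ratios of 1.07, 0.772 and 1.11.

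*Gas1* had a ratio below 1 in each of the 9 classes. Its counting interval included 1 in *Fgf8*-led (0.578 to 1.17), anterior forebrain-like (0.545 to 1.09), endothelium-like (0.317 to 1.45) and neural crest-like cells (0.339 to 1.24). With cells gated by markers the ratio in anterior forebrain-like and endothelium-like cells was 1.02 and 1.01. Over all kept cells its level was 106 CPM in WT and 65.9 CPM in KO (4443 and 3455 UMIs, ratio 0.621), and it was the 1 of 9 measured members past 1.5-fold there, where 5.23% of genes were. The ratio was 0.452 in ectoderm-like cells (406 and 145 UMIs, 0.371 to 0.548), 0.535 in mesenchyme-like cells (1736 and 1218 UMIs), 0.656 in neural crest-like cells (26 and 18 UMIs), 0.681 in *Tbx5*-led and endothelium-like cells, 0.715 in pigment epithelium-like, 0.771 in anterior forebrain-like, 0.821 in *Fgf8*-led and 0.856 in neural retina-like cells. Of 4016 genes with at least 30 UMIs in every one of the 9 classes, 3.09% were lower in KO in all 9 and 0.847% were at least 1.5-fold lower in 3 or more. Of the members, 1 of the 6 measured in ectoderm-like cells was past the fold, where 13.6% of genes were, and 1 of 4 in neural crest-like cells, where 17.5% were. In mesenchyme-like cells 2 of 9 were, *Gas1* lower and *Hhip* higher, where 5.49% of genes were.

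The lower *Gas1* level was found in both kinds of ectoderm-like cell. In lens placode-like cells (28 in WT, 25 in KO) it was 323 and 155 CPM (ratio 0.480), and in surface ectoderm-like cells (31 and 22) it was 377 and 165 CPM (0.439). The share of ectoderm-like cells with a *Gas1* UMI was 100% and 91.5%, or 84.7% and 51.1% when thinned to 6000 UMIs, against 5.26% and 9.62% of erythrocyte-like cells. In the mesenchyme the ratio was 0.607, 0.508 and 0.470 in the main, *Alx1* and *Ebf2* clusters, and 1.07 in a small cluster of low UMI counts (66 cells in WT, 14 in KO). Within cells scored as G1, S and G2M it was 0.467, 0.569 and 0.528 in the mesenchyme-like cells, and 0.710, 0.725 and 0.697 in the pigment epithelium-like cells. In the ectoderm-like cells it was 0.318, 0.691 and 0.429, of which that in S (121 and 33 UMIs, 0.456 to 1.02) was not past the fold. *Gas1* is known to be high in cells at rest, which a G1 score does not tell apart from other G1 cells. The share scored as G1 was 17.4% in WT and 14.1% in KO in mesenchyme-like cells. It was 46.4% and 20% in lens placode-like cells, but 29% and 45.5% in surface ectoderm-like cells and 19.8% and 34.5% in *Tbx5*-led cells. A part of the cell cycle in the *Gas1* values was not tested. Globin and other erythrocyte markers summed to 201 CPM in WT and 420 CPM in KO in neural retina-like cells, so RNA of these genes outside erythrocyte-like cells differed between the libraries. Whether free RNA of other genes differed, and its part in the *Gas1* values, was not tested. *Gas1* lies at chr13:60174405-60177365 (minus strand), where an exon of *Gm48488* overlaps it on the other strand.

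**Figure D4:**
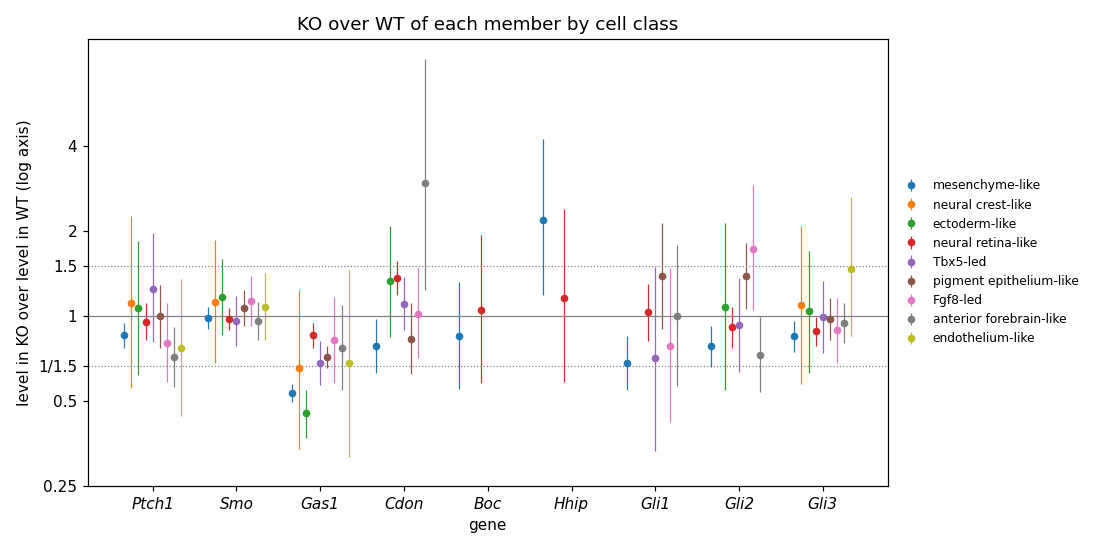
Level in the library labelled KO over that labelled WT for each member and class with at least 30 UMIs over both libraries, on a log axis; colours are cell classes, bars exact 95% intervals for counting (1 library each), the line marks 1 and dotted lines 1.5-fold. All 9 *Gas1* points lie below 1, from 0.452 to 0.856, though the bars of some cross 1, while points of *Smo* lie between 0.956 and 1.17.

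The 3 higher pairs rested on few UMIs, as did the lower pair of *Gas1* in neural crest-like cells (26 and 18 UMIs). *Cdon* in anterior forebrain-like cells gave 7 UMIs in WT and 24 in KO (1.78 and 5.28 CPM, ratio 2.97), the 1 of 7 measured members past the fold there, where 7.72% of genes were. *Hhip* in mesenchyme-like cells gave 15 and 43 UMIs (ratio 2.18), of which the main cluster held 8 and 25 (ratio 3.36) and the *Ebf2* cluster 5 and 15 (0.787). *Gli2* in *Fgf8*-led cells gave 22 and 71 UMIs (9.67 and 16.6 CPM, ratio 1.72), the 1 of 7 measured members past the fold there, where 8.32% of genes were. In endothelium-like cells 0 of 4 members passed the fold, where 10.0% of genes did. *Cdon* was also higher in neural retina-like cells of KO, within the fold (28.5 and 38.8 CPM, ratio 1.36). The *Cdon* ratio in *Fgf8*-led cells, 1.02, became 1.81 when cells were thinned. The median log2 ratio of the measured members was -0.03 in neural retina-like, -0.06 in *Tbx5*-led, -0.17 in *Fgf8*-led, -0.24 in mesenchyme-like and 0.11 in ectoderm-like cells, where that of all genes was 0.01, -0.02, 0.03, 0.00 and -0.02.

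The wider pathway was read from 58 genes in 6 lists, which include the members. Over all kept cells 51 had at least 30 UMIs, of which 2 were at least 1.5-fold higher and 4 at least 1.5-fold lower in KO, where 5.23% of all genes were past the fold either way. The higher ones were the targets *Nkx6-2* (76 and 152 UMIs, ratio 1.60) and *Osr1* (80 and 164 UMIs, 1.64). The lower ones were *Gas1*, *Prkaca*, *Nkx6-1* (377 and 277 UMIs, 0.587) and *Olig2* (36 and 8 UMIs, 0.178). Of 21 measured targets 2 were higher and 2 lower, against the same 5.23% of all genes, and the related homeobox genes *Nkx6-1* and *Nkx6-2* differed in opposite directions. Within single classes, neither *Osr1* nor *Olig2* was past the fold, though a class with fewer than 30 UMIs was not counted. *Nkx6-2* was past it in neural retina-like cells only (28 and 63 UMIs, 1.71). It was a leading gene of the *Fgf8*-led cells, which were 106 of 1680 cells in WT and 215 of 2404 in KO. The part of such differences in cell mix in the ratios over all kept cells was not tested. *Nkx6-1* was at least 1.5-fold lower in neural retina-like (0.610), *Fgf8*-led (0.651), anterior forebrain-like (0.324) and mesenchyme-like cells (0.355).

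*Prkaca* was lower in KO by a near constant factor. It encodes a catalytic subunit, not the only one, of protein kinase A, the kinase that marks GLI2 and GLI3 for processing to repressors. The level of *Prkaca* was 69.7 CPM in WT and 40.8 CPM in KO (ratio 0.586), and the ratio lay between 0.529 and 0.633 in all 9 classes. It was the only one of 14 measured genes of the cilium and transduction list past the fold over all kept cells, and 0.0498% of the 4016 genes were at least 1.5-fold lower in each of the 9 classes. *Gpc3*, a glypican that binds Hedgehog ligands, was lower in pigment epithelium-like (0.515), neural retina-like (0.549), *Tbx5*-led (0.632) and endothelium-like cells (0.610) and within the fold in mesenchyme-like cells (125 and 108 CPM, 0.862). *Lrp2* was higher in ectoderm-like (17 and 26 UMIs, 1.94) and *Tbx5*-led cells (26 and 46 UMIs, 1.51). *Sufu*, the cytoplasmic inhibitor of GLI proteins, had a ratio of 0.883 over all kept cells, and *Kif7*, its partner at the cilium tip, of 0.938.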

How the data were processed

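Raw UMI counts, deposited by the authors as 1 matrix per library, had been made with Cell Ranger 2.2 against GRCm38 (mm10); the authors joined the libraries with its aggr program, which can subsample reads between libraries. From these counts, barcodes with 1500 to 8000 genes and no more than 5% of UMIs from mitochondrial genes were retained: 1680 and 2404 cells. Seurat 5.3.0 (R 4.3.3) gave joint clusters of all of them (1981 variable genes without the pathway genes, S and G2M scores regressed out, 40 principal components, resolution 0.6). Of 16 clusters, 1 of 24 cells was left out, and 2 of low UMI counts stayed unnamed. A cluster was named when at least 3 markers of a type reached a 2-fold higher level than in all other cells and its leading genes did not go against the name. Mesenchyme-like cells join 4 clusters, since the *Foxc* and *Alx* marker lists were taken as kinds of mesenchyme; 1 of the 4 (66 and 14 cells) had none of its markers among its 10 leading genes, nor had the lens placode-like and surface ectoderm-like sub-clusters.

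Levels are UMIs summed over the cells of a class per 1000000 UMIs of that class. Intervals are exact Poisson intervals for levels, Clopper-Pearson intervals for shares and conditional binomial intervals for ratios, all at 95% and for counting only. A gene was measured with at least 30 UMIs over both libraries and past the fold at 1.5-fold. The members and lists were chosen with earlier results of these data known. Genes named outside the members are pathway-list genes past the fold, those most like *Ptch1* or *Gli1* among genes with at least 200 UMIs, markers, and a few named for their known role after their values were seen. Of the pathway lists 1 symbol, *Grk2*, was not matched, and its older symbol *Adrbk1* was. Promoter windows of *Gli1*, *Shh* and *Boc* were not used here. Doublets were not removed; leaving out the 5% of cells with the highest Scrublet scores (scanpy 1.11.5) was an alternative. The statistics were tested on simulated Poisson counts, the model that the intervals themselves assume. The simulation held no variation between cells or embryos, so it cannot show how the intervals fare with such variation. Coordinates are from the GENCODE annotation of GRCm38.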

Additional observations from a re-analysis of the deposited data

Results flagged for a closer look

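*Hsd11b2*, a listed pathway target, differed between classes in direction: the KO over WT ratio was 1.75 in *Tbx5*-led cells (33 and 68 UMIs) and 0.659 in anterior forebrain-like cells (21 and 16 UMIs). This difference was not tested.

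Barcodes outside the limits on cells (65 in WT, 54 in KO) were not used in any comparison, and some members were counted there above the interval of the kept cells. *Ptch1* was 51.6 CPM in such barcodes of KO against 32.2 CPM in kept cells. *Hhip* was 5.12 CPM in WT (9 UMIs) against 1.31 CPM and 6.97 CPM in KO (5 UMIs) against 1.72 CPM. *Gas1* was 137 CPM in WT against 106 CPM. As 10 genes were looked at in 2 libraries, counting alone may set some of these apart.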

How the results depend on the processing

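No paired analysis was possible because each genotype has 1 library, and no replicate could be left out. The class with the highest summed level of WT and KO was that of the main analysis for 9 of 9 members under 8 alternatives, for 8 of 9 at resolution 0.3, with 20 principal components and with cells gated by markers, and for 7 of 9 without limits on cells. The marker gate had no *Tbx5*-led or *Fgf8*-led class, so the highest class of *Cdon* could not recur there. For *Smo*, *Tbx5*-led cells (180 and 203 UMIs) gave a ratio under 9 alternatives, against 13 for neural retina-like cells. The *Tbx5*-led class was thus not available under every alternative. Ratios of *Ptch1* and *Gli1* stayed within their counting intervals under each alternative that left 30 UMIs, except that in neural retina-like cells thinned to 6000 UMIs the *Ptch1* ratio was 0.809 (0.953 without thinning), and in mesenchyme-like cells scored as G1, a choice made after seeing the data, it was 0.609 (0.854). The count of 6 member and class pairs past 1.5-fold became 3 at a fold of 2, 12 with at least 10 UMIs and 2 with at least 100 UMIs. Other members moved out of their intervals in 22 of 512 alternative values, and none past the fold changed direction. *Gas1* in neural retina-like cells had ratios of 0.670 with cells gated by markers, 0.728 with 20 principal components and 0.729 without limits on cells (0.856 in the main analysis). Over the alternatives it ranged from 0.318 to 0.464 in ectoderm-like cells and from 0.467 to 0.556 in mesenchyme-like cells; cells scored as S, which were not among them, gave 0.691 and 0.569. The cause of these shifts was not tested. With 1 library per genotype, a difference between embryos cannot be told apart from one of genotype, and *Shh*, *Hhip* and *Boc* are limited by their few UMIs.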
